A study of Homo sapiens with 6 samples.

Results

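The genes described here encode the nuclear subunits of the mitochondrial respiratory chain and of ATP synthase. Members were taken from the count table by gene symbol: the NDUF genes of complex I, SDHA to SDHD of complex II, the UQCR genes and CYC1 of complex III, the COX4 to COX8 families of complex IV, and the ATP5 genes of ATP synthase. The pattern matched 96 symbols, of which 4 were left out as antisense genes or a pseudogene (NDUFB2-AS1, UQCRB-AS1, NDUFV2-AS1 and UQCRBP1). The remaining 92 of 38167 genes were 87 subunit genes and 5 hyphenated loci. By complex, the subunit genes were 36 of complex I, 4 of complex II, 10 of complex III, 19 of complex IV (with NDUFA4 and NDUFA4L2, which belong there despite their names) and 18 of ATP synthase. The hyphenated loci were 3 divergent transcripts (NDUFV1-DT, UQCRFS1-DT and NDUFA6-DT) and a pair of read-through genes (ATP5MF-PTCD1 and NDUFC2-KCTD14).

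RNA came from small extracellular vesicles, membrane-bound particles that cells release into the medium. They were collected by insulator-based dielectrophoresis from the medium of Cal27 spheroids, Cal27 being an established human line of squamous carcinoma cells of the tongue. The soft group (n = 3 libraries) was grown with 3 mg/mL of Matrigel, a basement membrane extract that sets to a gel, and the stiff group (n = 3) with 12 mg/mL. Both groups were the same unmodified line in liquid overlay culture at day 14, and RNA of the cells themselves was not analysed here. The design allows 1 contrast, whether the RNA in the vesicles changed with the concentration of the surrounding gel. The amount of extract and the stiffness of the gel change together in this contrast and cannot be told apart.

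The respiratory chain sits in the inner mitochondrial membrane. Complexes I and II pass electrons from NADH and succinate to coenzyme Q, complex III passes them on to cytochrome c, complex IV passes them to oxygen, and ATP synthase makes ATP from the proton gradient that results. Most subunits are made from nuclear genes and imported. A few core subunits of complexes I, III, IV and ATP synthase are encoded by mitochondrial DNA, and complex II is wholly nuclear.

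Library totals were 2445498, 2525947 and 2545385 counts in soft and 2697502, 2900205 and 2977837 in stiff. Ribosomal RNA genes took 2.97% to 8.87% of the counts of soft libraries and 20.02% to 22.9% of those of stiff libraries, so shares of all counts are given below with and without these genes. The labelled cell type was checked against markers fixed for it. The 12 squamous epithelial markers summed to between 441 and 472 CPM (counts per 1000000 counts of the library) in soft libraries and between 394 and 431 in stiff libraries, and 0 of them were at 0 throughout. Per kilobase of exon their median level was 7.80 CPM, beside 8.05 for 8 striated muscle markers, 5.99 for 6 leukocyte markers and 3.81 for 7 fibroblast markers. The squamous markers thus did not stand above the muscle markers per kilobase, and 0 of the genes in the other lists were at 0 throughout either. The muscle markers summed to 275 to 312 CPM in soft and 234 to 254 in stiff, the fibroblast markers to 281 to 298 and 240 to 266, and the leukocyte markers to 110 to 136 and 94.8 to 101. These sums are per library total, ribosomal RNA included. In the edgeR fit below, on counts scaled by TMM factors, the squamous markers had a median log2 fold change (stiff minus soft) of 0.11. Of these 12 genes, 7 were above 0 and 5 below, and 1 was called higher, against 0.286% of all genes. The medians were 0.062, 0.099 and −0.057 for the muscle, fibroblast and leukocyte markers, with 0 called.

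No nuclear gene of the respiratory chain passed the test between vesicles from soft and stiff gels, while all 13 mitochondrially encoded subunits of the same complexes fell in stiff, by a median of 2.93 on the log2 scale. Of the 92 members, 86 had enough counts to be tested, and edgeR's quasi-likelihood test called 0 of them at an adjusted p under 0.05, beside 0.451% of the 31074 genes tested (0.286% higher and 0.164% lower in stiff). The smallest adjusted p was 0.154. DESeq2 and limma-voom also called 0. At an unadjusted p under 0.05 edgeR gave 4 members (4.65%, against 9.51% of all genes), limma-voom 4 (against 9.63%) and DESeq2 1 (against 4.22%). A share called of 0 among 86 genes is near the background. The median log2 fold change (stiff minus soft) was −0.016 over the members and −0.0048 over all genes, with 41 members above 0 and 45 below. In bulk RNA of this kind, fewer vesicles with a transcript and less of it per vesicle cannot be told apart.

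**Figure D1:**
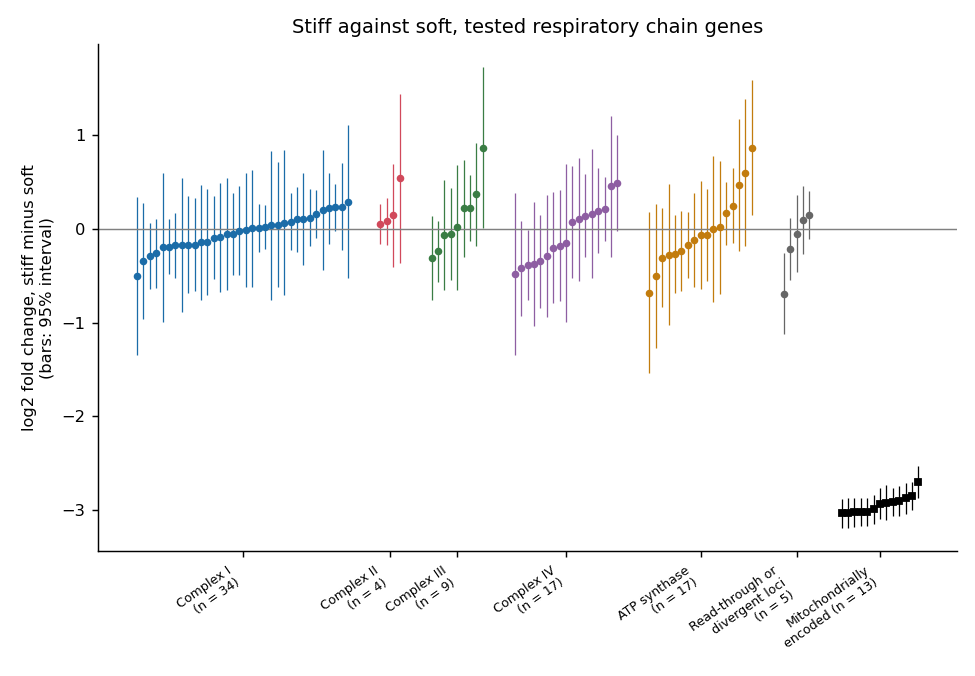
Log2 fold change of stiff minus soft for each tested gene (points) with its 95% interval (bars), ordered within each complex along the x axis; circles are the 86 tested members and squares the 13 mitochondrially encoded subunits. The members lie between −0.69 and 0.87, and the mitochondrially encoded genes between −3.03 and −2.70.

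The intervals bound how large an undetected change in TMM-scaled counts could be. They do not bound a change in transcripts, since whether DNA added reads was not tested. They also rest on the TMM scale. With library totals alone the median log2 fold change of the members was −0.28, and 7 were called lower (8.14%, against 13.5% of all genes). All 86 tested members had a 95% interval that lay wholly above −2.70, the smallest of the falls among the mitochondrially encoded genes. For 79 the interval lay wholly above −1, and for 71 it lay within −1 to 1, that is, within a doubling or halving. The groups did not overlap in CPM scaled by TMM factors for 7 members (8.14%), 3 higher and 4 lower in stiff, against 14.1% of all genes tested (7.38% higher and 6.76% lower). Counts were low throughout, from 1 to 222 per library and member.

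Complex I had 34 tested genes with log2 fold changes between −0.50 and 0.29 and a median of −0.016. Its 7 nuclear core subunits, which carry the flavin and iron-sulphur clusters, had a median of 0.077, and the 27 tested supernumerary subunits one of −0.055. NDUFA10, a supernumerary subunit related to nucleoside kinases and the complex I gene with the most counts, had 167, 178 and 135 counts in soft and 156, 148 and 158 in stiff. NDUFS1, the largest iron-sulphur subunit, had 118, 159 and 128 in soft and 105, 152 and 131 in stiff. For both genes the groups overlapped, and the log2 fold changes were 0.022 ± 0.118 (SE) and 0.012 ± 0.129.

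NDUFS7, a core subunit near the coenzyme Q site, was the only complex I gene whose groups did not overlap in scaled CPM, at 45.7 ± 1.98 (SD) for the 3 soft and 53.7 ± 6.26 for the 3 stiff libraries. Its raw counts were 127, 120 and 125 against 145, 145 and 124, and its log2 fold change of 0.23 ± 0.128 (SE) did not pass the test (adjusted p = 0.585). NDUFB4, a small membrane-arm subunit, had the lowest log2 fold change of the complex, −0.50 ± 0.428 (SE), from 9, 16 and 14 counts in soft and 13, 9 and 4 in stiff. Those ranges overlapped and the adjusted p was 0.768. The filter on low counts removed NDUFA1, with 5, 3 and 2 counts in soft and 1, 3 and 4 in stiff, and NDUFS5, with 11, 7 and 8 against 12, 9 and 2.

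All 4 genes of complex II had log2 fold changes above 0, with a median of 0.11 and adjusted p-values of at least 0.762. When library totals alone set the scale, SDHA and SDHC were below 0 and SDHD was at 0.28. SDHB had a mean of 4.21 CPM per kilobase of exon in soft and 3.86 in stiff, also without TMM factors. SDHC, a membrane anchor, had more counts than any other member: 195, 179 and 185 in soft and 165, 222 and 164 in stiff. SDHA, the flavoprotein that oxidizes succinate, had 143, 138 and 123 against 130, 161 and 115. Stiff replicate 2 was the highest library for both genes and the other stiff counts lay within or below the soft range. SDHD, the other anchor, had 10, 3 and 10 counts in soft and 8, 14 and 10 in stiff, and its log2 fold change of 0.54 ± 0.457 (SE) rested on these few counts.

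Complex III had 9 tested genes and a median log2 fold change of 0.019. UQCRB, which lies beside the coenzyme Q site, had 77, 96 and 90 counts in soft and 94, 60 and 57 in stiff (log2 fold change −0.24 ± 0.166 SE, adjusted p = 0.693). CYC1, the cytochrome c1 subunit, had 68, 61 and 57 in soft and 59, 81 and 66 in stiff. Both sets of ranges overlapped. UQCRC2, a core protein, was higher in every stiff library on the scaled values, at 11.3 ± 1.33 (SD, n = 3) CPM against 8.73 ± 1.54 (n = 3) in soft, with a log2 fold change of 0.37 ± 0.280 (SE) and an adjusted p of 0.732.

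UQCRH, the acidic hinge protein that helps cytochrome c dock on cytochrome c1, had 4, 7 and 12 counts in soft and 18, 13 and 9 in stiff. Stiff replicate 3 lay below soft replicate 3, so the groups overlapped. The log2 fold change was 0.87 ± 0.436 (SE), with an unadjusted p of 0.0485 and an adjusted p of 0.519. It was 0.55 without stiff replicate 1 and 1.36 without soft replicate 3, so single libraries set its size.

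Part of UQCRH is hard to count on its own because UQCRHL, an intronless copy elsewhere on chromosome 1, is nearly identical in its coding part. The rest of the exons and the 4 RefSeq pseudogenes of UQCRH were not compared. The coding part of UQCRH lies at chromosome 1, 46303767 to 46316581, on the plus strand of GRCh38, and that of UQCRHL at chromosome 1, 15807377 to 15807649, on the minus strand. Both are shown from GENCODE release 29, without the stop codon, because they show how much of a read could come from either gene. Capitals mark the bases that differ.
UQCRH: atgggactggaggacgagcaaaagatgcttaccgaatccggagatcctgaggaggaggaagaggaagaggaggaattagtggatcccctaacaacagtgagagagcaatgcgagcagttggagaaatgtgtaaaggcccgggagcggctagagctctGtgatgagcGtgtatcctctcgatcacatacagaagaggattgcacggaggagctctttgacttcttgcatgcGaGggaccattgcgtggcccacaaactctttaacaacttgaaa
UQCRHL: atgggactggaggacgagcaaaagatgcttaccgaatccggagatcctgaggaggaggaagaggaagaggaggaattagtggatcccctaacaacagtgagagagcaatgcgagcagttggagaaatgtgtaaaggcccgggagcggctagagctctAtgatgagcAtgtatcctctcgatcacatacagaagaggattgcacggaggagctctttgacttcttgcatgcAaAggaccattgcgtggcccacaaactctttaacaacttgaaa
The coding parts differed at 4 of 273 bases (98.5% identity), and the first 157 bases were the same. Of the 213 windows of 61 bases in UQCRH, the read length the labels give, 100 (46.9%) were also in UQCRHL. UQCRHL had 17, 8 and 9 counts in soft and 12, 9 and 9 in stiff and was not tested. Summed over both genes the counts were 21, 15 and 21 in soft (19.0 ± 3.46, SD) and 30, 22 and 18 in stiff (23.3 ± 6.11), and these overlapped. How the authors' counting treated reads that fit both genes is not given in the sources used here, so neither count is certain.

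Complex IV had 17 tested genes and a median log2 fold change of −0.15. COX7A2L, a relative of the COX7A subunits that holds complexes III and IV together in supercomplexes, lies at chromosome 2, 42333546 to 42425088. It had 69, 72 and 73 counts in soft and 31, 70 and 55 in stiff, so that soft libraries were close together and stiff replicate 1 was the lowest of the 6. The log2 fold change was −0.39 ± 0.189 (SE), with an unadjusted p of 0.0422 and an adjusted p of 0.497. Without stiff replicate 1 it was −0.15, and without stiff replicate 2 it was −0.63.

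The groups did not overlap in scaled CPM for 3 of the 17 tested genes of complex IV (17.65%). That share is near the 14.1% of all genes tested. COX5A, a matrix-side subunit, had 25, 31 and 24 counts in soft and 29, 34 and 44 in stiff, with a log2 fold change of 0.49 ± 0.259 (SE) and an adjusted p of 0.549. COX8A, a small membrane-spanning subunit, went the other way, with 42, 36 and 35 against 31, 28 and 21 (−0.42 ± 0.256 SE, adjusted p = 0.634). COX6A1 had 21, 20 and 22 against 16, 15 and 15 (−0.38 ± 0.335 SE, adjusted p = 0.783). The lowest log2 fold change of the complex was −0.48 ± 0.438 (SE) in COX6B1, from 18, 14 and 5 counts in soft and 12, 5 and 8 in stiff, which overlapped. Not tested were COX7C, at 10, 8 and 3 counts in soft and 2, 11 and 10 in stiff, and the testis isoform COX7B2, at 14, 10 and 5 against 4, 8 and 8.

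ATP synthase had 17 tested genes with a median log2 fold change of −0.066, 6 above 0 and 11 below. Both the highest and one of the lowest values among the members belonged to a gene and its copy. ATP5MG, a membrane subunit that helps ATP synthase form dimers, had 10, 15 and 9 counts in soft and 20, 13 and 26 in stiff, a log2 fold change of 0.87 ± 0.367 (SE) with an unadjusted p of 0.0191 and an adjusted p of 0.381. ATP5MGL, its copy, had 11, 14 and 14 against 5, 11 and 7, a log2 fold change of −0.68 ± 0.436 (SE) with an adjusted p of 0.656. In scaled CPM the groups overlapped for both.

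The coding part of ATP5MG lies at chromosome 11, 118401666 to 118409095, on the plus strand, and that of ATP5MGL at chromosome 22, 42639975 to 42640274, on the minus strand. They are shown together because a smaller share of the windows in their coding parts fits both genes than in the UQCRH pair. The rest of the exons and the 8 RefSeq pseudogenes of ATP5MG were not compared. Capitals mark bases that differ, and of the 309 coding bases of ATP5MG the 300 that align are printed.
ATP5MG: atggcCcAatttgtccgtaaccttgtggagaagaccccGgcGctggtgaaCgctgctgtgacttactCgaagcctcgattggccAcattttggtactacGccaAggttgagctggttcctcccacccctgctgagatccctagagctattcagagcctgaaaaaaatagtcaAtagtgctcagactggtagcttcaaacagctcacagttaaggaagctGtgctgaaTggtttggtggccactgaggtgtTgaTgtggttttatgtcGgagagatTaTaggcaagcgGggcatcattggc
ATP5MGL: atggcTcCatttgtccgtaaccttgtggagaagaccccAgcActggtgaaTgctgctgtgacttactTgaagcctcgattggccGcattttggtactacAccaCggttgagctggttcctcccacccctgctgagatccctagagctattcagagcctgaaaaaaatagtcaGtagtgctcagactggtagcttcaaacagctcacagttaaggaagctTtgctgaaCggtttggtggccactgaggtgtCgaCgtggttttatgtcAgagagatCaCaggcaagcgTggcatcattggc
Of 300 aligned bases 18 differed (94.0% identity), and 8 of 249 windows of 61 bases in ATP5MG (3.21%) were also in ATP5MGL. Summed over both genes the counts were 21, 29 and 23 in soft (24.3 ± 4.16, SD) and 25, 24 and 33 in stiff (27.3 ± 4.93), so the pair together overlapped between groups.

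Among the other ATP synthase genes, ATP5F1D and ATP5F1E of the central stalk had the most counts. ATP5F1D had 67, 59 and 83 in soft and 68, 77 and 78 in stiff, and ATP5F1E 87, 66 and 67 against 69, 57 and 59. Their log2 fold changes were 0.17 ± 0.170 (SE) and −0.17 ± 0.177, and both overlapped between groups. ATP5PD, of the peripheral stalk, had 7, 15 and 10 counts in soft and 21, 6 and 19 in stiff (log2 fold change 0.60 ± 0.398 SE, adjusted p = 0.673), with stiff replicate 2 below every soft library. ATP5PF, also of the peripheral stalk, had 68, 50 and 37 against 48, 45 and 32.

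The c ring, the rotor through which protons pass, is encoded by 3 genes for the same mature protein, and all had log2 fold changes below 0. For ATP5MC1 it was −0.50 ± 0.389 (SE), from 18, 16 and 14 counts in soft and 11, 15 and 6 in stiff. ATP5MC2 had 50, 52 and 55 against 35, 47 and 42, with groups that did not overlap on the scaled values (−0.27 ± 0.212 SE, adjusted p = 0.746). ATP5MC3 was at −0.064 ± 0.248 (SE) and overlapped, and none of the 3 passed the test. ATP5ME, with 3, 5 and 8 counts in soft and 8, 5 and 7 in stiff, was not tested.

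The lowest p of any member belonged to a locus that encodes no subunit. NDUFA6-DT starts head to head with NDUFA6, a complex I gene of the LYR family, and spans chromosome 22, 42090931 to 42137742 on the plus strand. It had 60, 58 and 54 counts in soft and 24, 39 and 38 in stiff, so every stiff library lay below every soft one. The log2 fold change was −0.69 ± 0.219 (SE), with an unadjusted p of 0.00173 and an adjusted p of 0.154. NDUFA6 itself, at 42085525 to 42090955 on the minus strand, had 22, 27 and 32 against 23, 29 and 18, and its groups overlapped (−0.14 ± 0.287 SE). The spans of these 2 genes overlap at their starts, and whether reads were counted by strand is not given in the sources used here, so reads from the overlap cannot be told apart.

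The 4 other hyphenated loci had log2 fold changes between −0.21 and 0.15. UQCRFS1-DT had 83, 76 and 84 counts in soft and 73, 59 and 67 in stiff, and NDUFV1-DT 57, 69 and 61 against 41, 76 and 73. The read-through gene ATP5MF-PTCD1 had 128, 121 and 116 against 103, 137 and 145, and NDUFC2-KCTD14 had 49, 60 and 46 against 45, 50 and 47. On the scaled values the groups overlapped for all 4. Read-through genes share exons with the genes they join, so their counts are uncertain.

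With library totals alone and no TMM factors, 7 members were called lower in stiff and 0 higher, among them UQCRB, COX7A2L, UQCRFS1-DT and NDUFA6-DT. The same setting moved the median of all genes to −0.27 and that of the members to −0.28, and it called 4163 genes lower and 31 higher in all, so 8.14% of the tested members stood beside 13.5% of all genes.

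Summed over the members, counts made up 0.159%, 0.155% and 0.147% of soft libraries and 0.127%, 0.134% and 0.122% of stiff libraries. Every stiff library lay below every soft one, and the means were 0.154% ± 0.00599 (SD, n = 3) and 0.127% ± 0.00591 (n = 3), a ratio of stiff to soft of 0.828. Without ribosomal RNA and mitochondrial genes in the total the shares were 0.165% ± 0.00129 and 0.163% ± 0.00462, a ratio of 0.984, and the groups overlapped. By complex the ratio over all counts was 0.833 for complex I, 0.882 for II, 0.841 for III, 0.805 for IV and 0.818 for ATP synthase. On the reduced total it was 0.990, 1.05, 0.999, 0.958 and 0.973, with the groups overlapping in each complex.

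**Figure D2:**
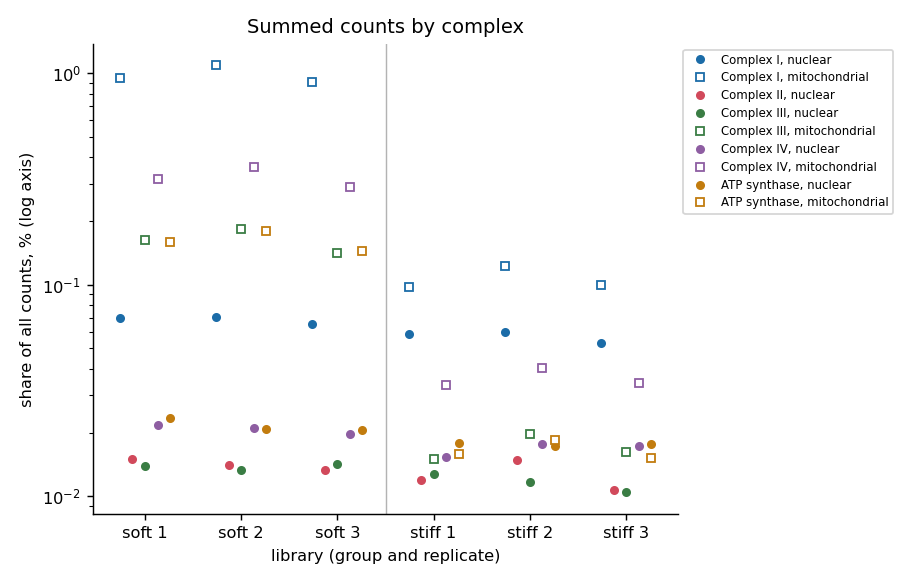
Share of all counts (%, log axis) taken by the summed genes of each complex in each of the 6 libraries; filled circles are nuclear genes and open squares mitochondrially encoded genes. The nuclear sums are 0.805 to 0.882 times as high in stiff as in soft, while each mitochondrially encoded sum is 8.91 to 9.78 times lower in stiff on the group means.

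The mitochondrially encoded partners give the scale of a large change in these libraries. All 13 were called lower in stiff by edgeR, with a median log2 fold change of −2.93, and limma-voom called 5 of them. The 7 mitochondrial genes of complex I took 0.980% ± 0.0959 (SD, n = 3) of soft and 0.107% ± 0.0142 (n = 3) of stiff counts, while the 36 nuclear genes took 0.0686% ± 0.00280 and 0.0571% ± 0.00346. For complex IV, 3 mitochondrial genes took 0.323% ± 0.0366 and 0.0362% ± 0.00365, against 0.0208% ± 0.00107 and 0.0168% ± 0.00125 for the 19 nuclear genes. In stiff libraries the ATP synthase sums lay close together, with 2 mitochondrial genes at 0.0165% ± 0.00168 and 18 nuclear genes at 0.0176% ± 0.000338. In soft libraries the same mitochondrial genes stood at 0.161% ± 0.0183 and the nuclear ones at 0.0216% ± 0.00154.

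Levels between genes were compared per kilobase of exon, as CPM per kilobase (CPM per kb), averaged over the 6 libraries. Over all annotated exons the subunit genes had a median level of 4.52, with a range from 1.04 (NDUFB2) to 24.1 (COX8A). Over exons of transcripts that the annotation pairs with RefSeq the median was 7.84, NDUFB2 stood at 9.15, and the range ran from 1.47 (NDUFA1) to 31.7 (NDUFS8). Respiratory subunits are among the more abundant messengers of most cells. The median over 19265 protein-coding genes was 6.04 over all exons, and 8.38 over RefSeq-paired ones. The median over 396 olfactory receptor genes, which are expressed in the nose and kept silent in most other tissues, was 4.26 and 6.38. Whether DNA added reads to these libraries was not tested, and a DNase step is not given in the sources used here, so the levels are counts per length and not numbers of transcripts. Over all exons, of the 87 subunit genes, 66 lay between the 5th and 95th percentiles of the olfactory receptors (1.94 to 10.5), 13 below and 8 above. The 8 above were CYC1, NDUFA8, NDUFB7, NDUFB10, COX8A, COX8C, COX4I2 and ATP5F1D. Over RefSeq-paired exons 79 of 86 lay between those percentiles (2.57 to 26.2), 5 below and 2 above.

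**Figure D3:**
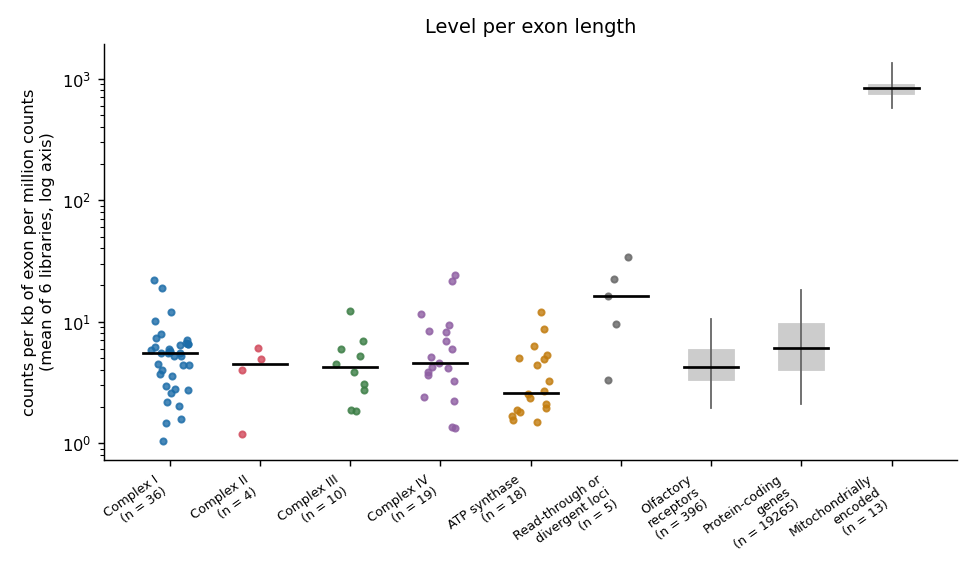
Level per exon length (CPM per kb of exon, mean of 6 libraries, log axis); points are single members by complex with their median as a line, and grey boxes give the quartiles, bars the 5th to 95th percentile and lines the median of the comparison sets. The medians of the 5 complexes lie between 2.61 and 5.51, around the olfactory receptor median of 4.26 and far below the mitochondrially encoded median of 830.

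The ratio of the subunit median to the olfactory receptor median was 1.06 and depended on the length used. It was 1.55 per kilobase of the longest transcript, and 1.23 over RefSeq-paired exons. RefSeq pseudogenes were matched by symbol, as the symbol of the gene followed by P and any digits, so those under other names were not counted. For the 38 subunit genes without such a pseudogene the ratio was 1.29 over all exons and 1.86 per kilobase of the longest transcript. Over RefSeq-paired exons, which 37 of them had, it was 1.58. Processed pseudogenes are a common source of shared reads for these genes, and 49 of the 87 subunit genes had at least 1 in RefSeq, 201 in all, of which the count table listed 4. Over all exons the level and the number of pseudogenes had a Spearman correlation of −0.329 across the 87 genes. Over RefSeq-paired exons it was −0.221 across 86 genes. Both are given as descriptions of genes that share libraries and differ in length and base composition.

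Differences among the subunit genes followed their length and base composition. The mean count correlated with exon length at a Spearman rho of 0.601 across the 87 genes, and at 0.631 across the 19265 protein-coding genes. The level per kilobase correlated with GC content at 0.56 and 0.65 in the same sets. These too are descriptions across genes of the same 6 libraries. The member with the most counts, SDHC, had 14160 bases of annotated exon and a level of 4.90 ± 0.665 (SD over 6 libraries), and COX8A had 507 bases and a level of 24.1 ± 7.10. Set against protein-coding genes of similar length over all annotated exons, interpolated between 20 bins, 67 of the 87 subunit genes were below the median, 18 below the 5th percentile and 0 above the 95th. Over RefSeq-paired exons 57 of 86 were below the median, 5 below the 5th percentile and 0 above the 95th.

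**Figure D4:**
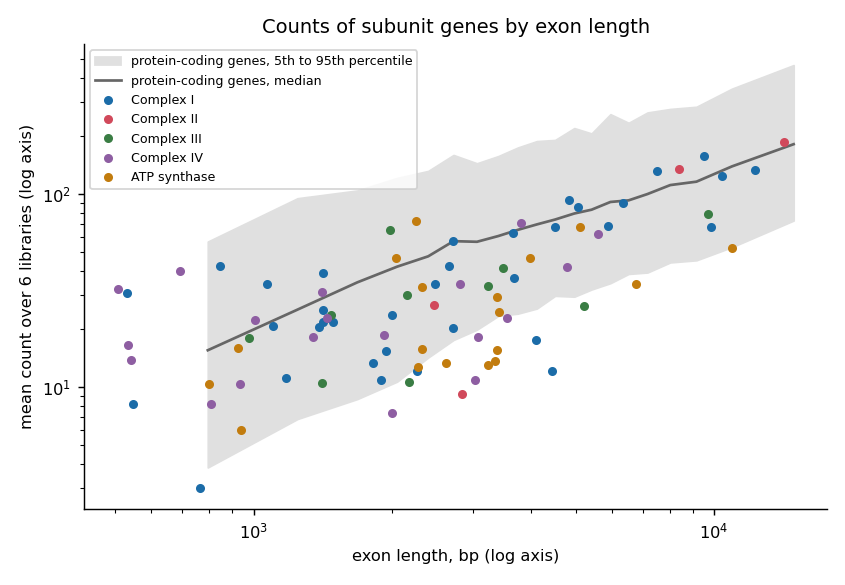
Mean count over 6 libraries (log axis) of each subunit gene against its exon length in base pairs (log axis), coloured by complex; the grey line and band give the median and the 5th to 95th percentile of protein-coding genes in 20 bins of length. The subunit genes follow the slope of the band, and 67 of 87 lie below the grey line at their length, taken as level beyond its ends.

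By complex, the median level over all annotated exons was 5.51 for complex I, 4.47 for complex II, 4.20 for complex III, 4.60 for complex IV and 2.61 for ATP synthase. Over RefSeq-paired exons it was 9.21, 6.86, 6.38, 11.0 and 6.82. On that length complex III was the lowest, and ATP synthase lay next above it, still below complexes I, II and IV. The highest levels in complex I over all exons were in NDUFB7 (21.9 ± 5.76, SD over 6 libraries) and NDUFA8 (18.9 ± 4.60), subunits on the intermembrane side. Over RefSeq-paired exons they were in the core subunits NDUFS8 (31.7 ± 2.77) and NDUFS7 (24.4 ± 2.09).

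In complex II SDHA stood at 6.04 ± 0.855 and SDHD at 1.20 ± 0.442 over all exons, and at 21.2 and 2.09 over RefSeq-paired ones, although the protein holds them in equal number. CYC1 (12.4 ± 1.42) and UQCR10 (6.90 ± 1.76) led complex III over all exons, and UQCRQ (20.6 ± 5.68) and CYC1 (19.7 ± 2.27) over RefSeq-paired ones. ATP5F1D (12.0 ± 1.39) and ATP5PF (8.66 ± 2.85) led ATP synthase over all exons and, at 26.9 ± 3.12 and 13.4 ± 4.40, over RefSeq-paired ones. The 4 loci UQCRFS1-DT, NDUFC2-KCTD14, ATP5MF-PTCD1 and NDUFV1-DT, at 34.0, 22.5, 16.3 and 9.62 over all exons, were above most of the subunit genes. The other hyphenated locus, NDUFA6-DT, stood at 3.32 over all exons, below the subunit median of 4.52. Over RefSeq-paired exons it stood at 11.4, above the subunit median of 7.84, and UQCRFS1-DT had no such length.

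Several subunits exist as a widely used gene and a copy or isoform used in some tissues. COX6A2 and COX7A1 belong to heart and skeletal muscle, COX6B2, COX7B2 and COX8C to testis, COX4I2 mainly to lung, and NDUFA4L2 is induced by low oxygen. These 7 and the copies ATP5MGL and UQCRHL made 9 pairs with their partners. Per kilobase of all annotated exons the restricted or copied gene had the higher mean level in 7 of 9 pairs, in 5 of them in each of the 6 libraries. The restricted or copied genes had a median GC content of 58.23% and their partners 42.45%. RefSeq pseudogenes matched by symbol numbered 2 to 8 for COX4I1, COX6A1, COX6B1, COX7A2, COX7B, ATP5MG and UQCRH and 0 for the genes paired with them. COX8C had 1 and COX8A 0, and NDUFA4L2 and NDUFA4 both had 0. How far GC content and shared reads entered these levels was not tested.

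COX4I2 stood at 21.5 ± 2.16 (SD over 6 libraries) and COX4I1, the partner used in most tissues, at 3.24 ± 0.454, a ratio of 6.64. Their raw counts were alike: 41, 39 and 35 in soft and 36, 40 and 49 in stiff for COX4I2, and 31, 43 and 48 against 38, 44 and 46 for COX4I1. The annotated exons of COX4I1 came to 4792 bases and those of COX4I2 to 693. Over exons of RefSeq-paired transcripts COX4I1 was at a level of 15.4 ± 2.15, a ratio of 1.40, and COX4I2 was still the higher in each of the 6 libraries.

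COX6B2 stood at 6.88 ± 1.30 and COX6B1 at 4.23 ± 2.39 over all annotated exons, and at 15.8 ± 2.99 and 5.93 ± 3.35 over RefSeq-paired ones. NDUFA4L2 stood at 4.60 ± 1.41 and NDUFA4 at 2.40 ± 0.519, and at 11.0 ± 3.37 and 4.0 ± 0.866 over RefSeq-paired exons. Those 2 pairs and COX4I2 had the restricted gene higher in each of the 6 libraries on the RefSeq-paired length. COX7A1 (8.33 ± 1.27) was above COX7A2 (3.67 ± 1.14) in each library over all exons, and in 4 of 6 over RefSeq-paired ones.

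Other pairs turned with the length used. COX6A2 was at 9.46 ± 1.83 against 5.12 ± 1.259 for COX6A1 over all exons, but at 11.6 ± 2.26 against 12.0 ± 2.96 over RefSeq-paired ones. COX7B2 was at 3.84 ± 1.905 against 1.34 ± 0.636 for COX7B, and at 5.71 ± 2.84 against 9.07 ± 4.31. COX8A was above COX8C in each library on every length, at 24.1 ± 7.10 against 11.5 ± 2.37. On RefSeq-paired lengths the restricted or copied gene was the higher in 5 of 9 pairs, 3 of them in each of the 6 libraries. Of the 9 restricted or copied genes 7 were tested, and edgeR, DESeq2 and limma-voom each called 0 between soft and stiff, with 0 at an unadjusted p under 0.05. Of all genes edgeR called 0.451% and gave 9.51% an unadjusted p under 0.05, so 0 of 7 is near the background.

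**Figure D5:**
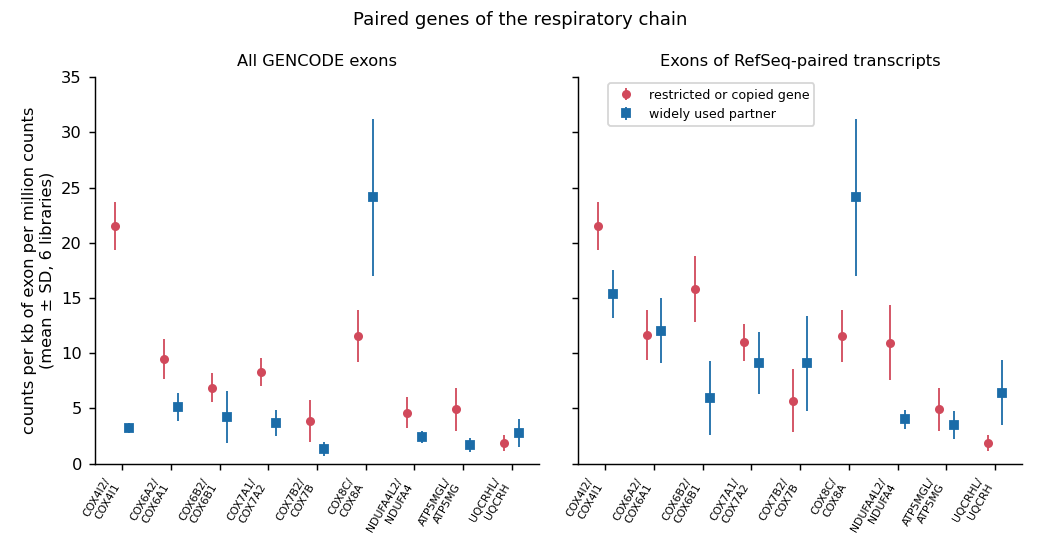
Mean level (CPM per kb of exon) ± SD over 6 libraries for 9 pairs of a restricted or copied gene (circles) and its widely used partner (squares), over all GENCODE exons at left and over exons of RefSeq-paired transcripts at right. The restricted or copied gene is the higher in 7 of 9 pairs at left and 5 of 9 at right.

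Nuclear genes that build, supply or regulate the chain were taken from lists. They covered assembly factors of each complex, coenzyme Q synthesis and electron carriers, mitochondrial DNA upkeep, transcriptional regulators and the citrate cycle, with 110 genes, of which 109 were tested. edgeR called 0 of them, against 0.451% of all genes, and 9 (8.26%) had an unadjusted p under 0.05, against 9.51% of all genes. Their median log2 fold change was −0.048, with 46 above 0 and 63 below. DESeq2 and limma-voom also called 0 of them, with 2 and 9 at an unadjusted p under 0.05, and edgeR with library totals alone called 21 (19.3%), against 13.5% of all genes on that scale. Their median level was 5.88 CPM per kb, beside 4.52 for the subunit genes.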

How the data were processed

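The authors deposited 1 table of raw counts by gene symbol with a column for each library and no normalization. Trim Galore 0.4.2, cutadapt 1.9.1, FastQC 0.11.7, STAR 2.6.1e, featureCounts 1.6.2, DESeq2 1.26.0 and hg38 are named, without roles, per the submitters' processing notes. The annotation, strand setting, treatment of reads that fit several genes and a DNase step are not given in the sources used here. Samples were grouped by title, since 2 stiff descriptions carry the same replicate number. The labels call them biological replicates, whose separate cultures are not described, so p-values measure the spread between these libraries. With ribosomal RNA genes included, libraries within a group differed beyond counting noise (chi-square per degree of freedom 1.53 to 3.86). The highest value was between soft replicates 1 and 3, where ribosomal RNA genes took 2.97% and 8.87% of counts. How much of the excess came from these genes was not tested.

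All genes were fitted in R 4.3.3 by edgeR 4.0.16 after filterByExpr, which kept 31074 of 38167 genes, with TMM factors, robust quasi-likelihood F tests, two-sided, and Benjamini-Hochberg adjustment. The fit was tested on simulated counts. DESeq2 1.42.0 and limma-voom (limma 3.58.1) were alternatives, beside other scalings, filters, a GC correction, a replicate block and leaving out each library. Standard errors come from the F statistic. Exon lengths, GC content and coding sequences are from GENCODE release 29 (GRCh38), and pseudogene numbers from a RefSeq gene table, matched by symbol. Named genes were the 2 of each complex with the most counts and the 2 with the highest level, the 5 largest and 5 smallest log2 fold changes, isoform pairs, untested members and hyphenated loci. NDUFS7, NDUFS8, UQCRC2, UQCRQ, ATP5MC2, ATP5MC3, NDUFA6 and the genes named only from counts above or below a limit were chosen after their values were seen. Members and lists were chosen with earlier results of these data known.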

Additional observations from a re-analysis of the deposited data

How the results depend on the processing

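Calls among the members were 0 in every alternative but library totals alone, which called 7. Over all genes edgeR called 140, against 4194 with library totals (31 higher, 4163 lower), 67 with DESeq2 and its filter, 43 without that filter, 79 with a GC correction, 173 with a replicate block, 89 with a replicate block and the GC correction, and 60 to 136 without each library in turn. DESeq2's filter left 1 member with an adjusted p. The replicate numbers did not pair the samples (correlations from −0.00793 to 0.00529), and the block called 0 members. Of 677 log2 fold changes of 39 named genes under alternatives, 634 kept direction and side, 4 passed the threshold under library totals and 39 reversed. With library totals the reversed values were NDUFA10 −0.25, NDUFS1 −0.26, SDHC −0.21, SDHA −0.19, CYC1 −0.048, UQCR10 −0.25, COX6B2 −0.061, COX4I2 −0.076, ATP5F1D −0.10, COX7A1 −0.19, COX8C −0.11, COX4I1 −0.12, ATP5MF-PTCD1 −0.12 and NDUFV1-DT −0.17. NDUFS1 was −0.0076 with at least 50 counts in 3 libraries. Leaving out each library gave log2 ranges that crossed 0 of −0.40 to 0.016 for ATP5PF, −0.020 to 0.30 for COX4I1, −0.052 to 0.22 for COX7A1, −0.86 to 0.19 for COX7B, −0.0086 to 0.39 for COX8C, −0.067 to 0.094 for NDUFA10, −0.33 to 0.039 for NDUFA8, −0.50 to 0.016 for NDUFB7, −0.11 to 0.059 for NDUFC2-KCTD14, −0.094 to 0.13 for NDUFS1, −0.032 to 0.29 for NDUFV1-DT, −0.033 to 0.20 for SDHA, −0.078 to 0.14 for SDHC and −0.30 to 0.23 for UQCR10. On library totals the median of all genes moved from −0.0048 to −0.27. The cause of these reversals was not tested. The ratio of shares, stiff to soft, was 0.808 to 0.847 for all members without each library, and without ribosomal RNA and mitochondrial genes it was 0.984, with 0.990, 1.05, 0.999, 0.958 and 0.973 for complexes I to IV and ATP synthase. The subunit level relative to olfactory receptors, 1.06 over all exons, was 1.55 over longest transcripts and 1.23 over RefSeq-paired exons, a length chosen after seeing the data. Without genes that have a RefSeq pseudogene it was 1.29, 1.86 and 1.58 on these lengths. Counts of 1 to 222 per library limit what could be detected for single members.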
